A study of Triticum aestivum with 6 samples.

Results

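The AUX1 and PIN genes described here were 6 genes that carry auxin across the plasma membrane and that the study placed among the auxin genes changed in axillary buds of the tatfl1-5 mutant. They were 4 AUX1 genes, TraesCS1A02G077800, TraesCS1B02G095900, TraesCS1D02G079900 and TraesCS4B02G226500, and 2 PIN genes, TraesCS4A02G188100 and TraesCS7A02G190600, out of 70043 genes listed in the deposited tables. The characters after TraesCS name the chromosome, so the genes are called AUX1-1A, AUX1-1B, AUX1-1D, AUX1-4B, PIN-4A and PIN-7A below. The study listed them because their expression differed between these same libraries, so the difference between mutant and wild type chose them. It is given here as a description with no p-value, and calls from fits over all genes say only where these fits placed the members. The wild type was the spring wheat cultivar Fielder (3 libraries), and the mutant was the triple null line tatfl1-5 (aabbdd, 3 libraries), which the labels call tfl1-5. The mutant was 1 transgene-free CRISPR/Cas9 line in the Fielder background, with a premature stop codon in the A, B and D copies of TaTFL1-5. The tissue was the axillary bud, the bud in a leaf axil from which a tiller grows, taken from seedlings whose age the methods and the results of the study give differently. The labels name biological repeats and do not say how many plants were pooled in a library.

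Auxin, mainly indole-3-acetic acid, moves from cell to cell with the help of carriers. Proteins of the AUX1/LAX family take auxin into cells, and proteins of the PIN family let it out, often from 1 side of the cell only, so that the placing of PIN sets the direction of flow. In Arabidopsis, auxin moving down the main stem holds back axillary buds, and removal of auxin from the leaf axil precedes the formation of a new axillary meristem. Common wheat carries A, B and D subgenomes, and the matching copies of a gene on them are its homoeologs. AUX1-1A, AUX1-1B and AUX1-1D are such a set, a triad, and the study's annotation gives all of them the same description, an auxin transporter-like protein. The homoeologs of AUX1-4B, PIN-4A and PIN-7A were not analysed here. Sequences and positions in bases of the members were not used here.

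The libraries held between 13320461 and 17174131 counts, and 52228 genes, all 6 members among them, passed the filter on low counts. Across tested genes the Pearson correlation of log2 CPM was 0.927 to 0.959 between libraries of a group and 0.834 to 0.891 between groups, so no library stood apart from its group. The edited genes had few counts. TaTFL1-5A (TraesCS5A02G128600) had 9 to 21 counts in Fielder against 1 to 7 in the mutant, and TaTFL1-5B (TraesCS5B02G127600) had 31 to 46 and 19 to 23. TaTFL1-5D was not analysed here.

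The AUX1 triad of group 1 was expressed at a few FPKM in Fielder and at a higher level in the mutant. FPKM, the authors' counts per kilobase of gene length and scaled to the library's depth, allows levels of different genes to be compared. AUX1-1A was at 2.90, 1.09 and 3.36 FPKM in Fielder, and at 10.2, 5.05 and 7.22 FPKM in the mutant, here and below in the order of replicates 1, 2 and 3. Behind these values stood raw counts of 61, 26 and 91 for Fielder against 271, 129 and 175 for the mutant. Fielder replicate 2 was lowest and mutant replicate 1 highest, and the groups did not overlap. AUX1-1B was at 3.03, 1.41 and 2.53 FPKM in Fielder and at 8.34, 4.86 and 4.97 FPKM in the mutant. Again Fielder replicate 2 was the lowest library, and both mutant replicates 2 and 3 lay well under replicate 1 without reaching Fielder. AUX1-1D was at 3.07, 1.66 and 4.21 FPKM in Fielder and at 10.5, 4.85 and 8.89 FPKM in the mutant. Its lowest mutant library, replicate 2, was close to its highest Fielder library, replicate 3, yet above it. Homoeologs are alike in sequence as a rule, so reads may have been split between these copies in counting, but their sequences were not compared here. How reads that fit several copies were counted is not given in the sources used here.

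AUX1-4B, an influx carrier gene on another chromosome group, stood at an even level within each group. It was at 4.63, 4.79 and 5.03 FPKM in Fielder and at 9.15, 9.63 and 10.1 FPKM in the mutant. The Fielder counts were 95, 112 and 133, and the mutant counts 236, 240 and 238. The 3 libraries of a group differed little and the groups lay far apart.

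The PIN genes, which encode efflux carriers, differed in how cleanly the groups separated. PIN-4A was at 3.05, 1.77 and 2.94 FPKM in Fielder and at 9.45, 5.97 and 8.30 FPKM in the mutant, with counts of 86, 57 and 107 against 336, 205 and 270. Every mutant library was above every Fielder library, and replicate 2 was lowest in both groups. PIN-7A was at 4.82, 2.28 and 6.38 FPKM in Fielder and at 11.5, 5.996 and 10.5 FPKM in the mutant, with counts of 154, 83 and 263 against 461, 233 and 387. Its lowest mutant library, replicate 2, was under its highest Fielder library, replicate 3, so that the groups overlapped for this gene. In CPM, counts scaled to the depth of the TMM-normalized library, 5 of the 6 members had no overlap between groups, where 22.2% of all tested genes had every mutant library above every Fielder library. In bulk tissue, more cells that express a gene and more RNA per cell cannot be told apart.

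**Figure D1:**
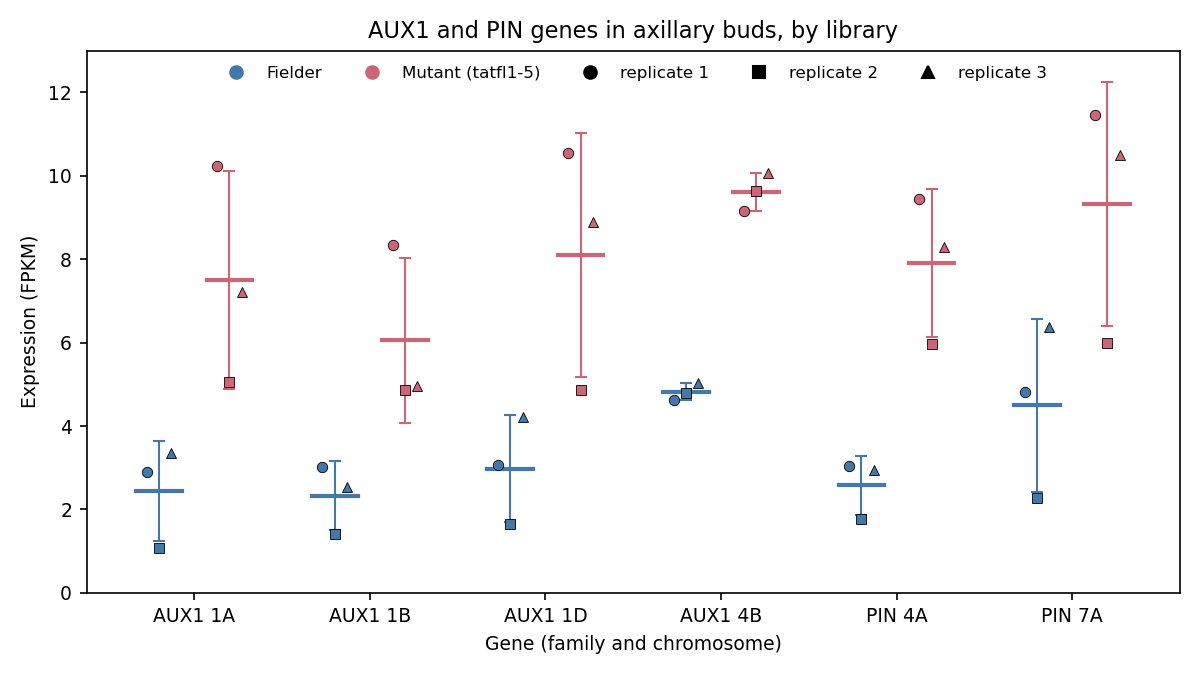
Expression (FPKM, linear axis from 0) of the 6 AUX1 and PIN genes in each library, with Fielder in blue and the mutant in red, a symbol for each replicate number, a bar for the group mean and whiskers for 1 SD (n = 3 each). AUX1-4B has short whiskers in both groups, Fielder replicate 2 is the lowest library of the other 5 genes, and the groups overlap for PIN-7A only.

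In the fit over all genes (edgeR's quasi-likelihood test), the 6 members were all called higher in the mutant, by the rule that the adjusted p is below 0.05 and the expression at least doubles or drops to the same degree (a limit of 1 on the log2 scale). Among all tested genes 7.98% were called higher and 13.7% in either direction, and nothing is read from the members' count because this comparison chose them. AUX1-1A had 3.80 ± 1.89 CPM in Fielder and 12.1 ± 4.14 CPM in the mutant (SD, n = 3 each), and its log2 fold change was 1.67 ± 0.37 (SE). AUX1-1B had 3.62 ± 1.28 CPM in Fielder and 9.86 ± 3.19 CPM in the mutant (SD, n = 3 each), and its log2 fold change was 1.45 ± 0.33 (SE). AUX1-1D had 4.66 ± 2.07 CPM in Fielder and 13.2 ± 4.64 CPM in the mutant (SD, n = 3 each), and its log2 fold change was 1.49 ± 0.34 (SE). The triad was thus 3.18, 2.73 and 2.81-fold higher in the mutant for the A, B and D copies, and the standard errors of these values overlapped. The log2 fold change of AUX1-4B was 1.06 ± 0.20 (SE), from 7.28 ± 0.43 to 15.2 ± 0.69 CPM (SD, n = 3 each). It had the smallest fold change of the 6 and also the smallest standard error.

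Between the PIN genes, PIN-4A had the larger fold change. It had 5.38 ± 1.49 CPM in Fielder and 17.2 ± 3.67 CPM in the mutant (SD, n = 3 each), and its log2 fold change was 1.67 ± 0.26 (SE). PIN-7A had 10.6 ± 5.02 CPM in Fielder and 22.9 ± 6.93 CPM in the mutant (SD, n = 3 each), and its log2 fold change was 1.11 ± 0.32 (SE). AUX1-4B and PIN-7A were the members just inside the limit of 1 on the log2 scale. The median log2 fold change was 1.47 over the members and 0.0046 over all tested genes.

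When 1 library at a time was left out, 5 of the 6 members were called in all 6 fits, and PIN-7A in 3 of them. The share of all tested genes called higher was 6.96, 7.0 and 9.42% without Fielder replicates 1, 2 and 3 and 6.54, 6.73 and 6.44% without mutant replicates 1, 2 and 3. For PIN-7A the log2 fold change was 0.78 without Fielder replicate 2 and 0.93 without mutant replicate 1, both below the limit, and 1.03 without mutant replicate 3, where it was not called either. Over the 6 fits the log2 fold change of AUX1-1A moved between 1.31 and 1.996, and that of AUX1-4B only between 1.02 and 1.10. DESeq2 called all 6 members higher, where it called 7.47% of the genes with an adjusted p higher and 12.8% in either direction. With library size alone 5 members were called, where 7.2% of all tested genes were called higher. Limma-trend called 4 members with either pseudocount, where it called 5.22% of all tested genes higher on log2(FPKM + 1) and 7.41% on log2(FPKM + 0.1). With the replicate number as a block 6 members were called, where 8.23% of all tested genes were. A test against the 2-fold limit itself called none of the members, where it called 1.73% of all tested genes higher.

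**Figure D2:**
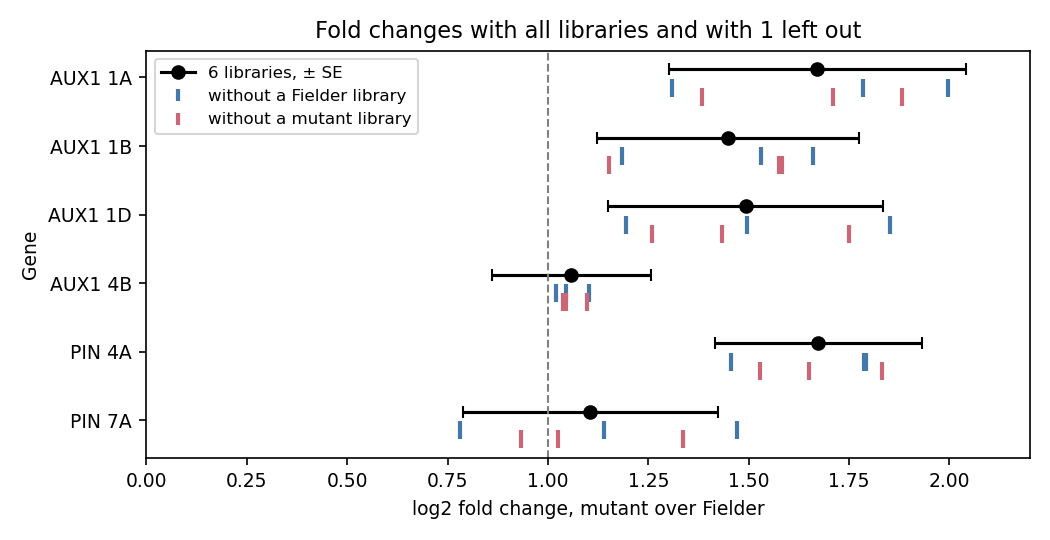
The log2 fold change of each gene, mutant over Fielder, on a linear axis from 0. Black points with whiskers are the values over 6 libraries with their standard errors, blue and red ticks the values with a Fielder or a mutant library left out, and the dashed line is the limit of 1. The ticks of AUX1-4B lie close together, and those of PIN-7A fall on both sides of the limit, from 0.78 to 1.47.

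Per length, the order of the members' mean levels was the same in both groups. From the highest to the lowest it was AUX1-4B, PIN-7A, AUX1-1D, PIN-4A, AUX1-1A and AUX1-1B. The means ran from 4.82 ± 0.20 down to 2.32 ± 0.83 FPKM in Fielder and from 9.61 ± 0.46 down to 6.06 ± 1.98 FPKM in the mutant (SD, n = 3 each). The ranges of neighbours in this order always overlapped, but ranges leave out that all members were measured in the same libraries. Library by library, PIN-7A was above AUX1-1D in all 6. Each other pair of neighbours changed order in at least 1 library. In Fielder, AUX1-4B lay above all libraries of 4 members, AUX1-1D, PIN-4A, AUX1-1A and AUX1-1B. In the mutant it lay above all libraries of 1 member, AUX1-1B. Among genes with any count, the members' mean FPKM stood between the 48.1 and the 63.4 percentile in Fielder and between the 70.1 and the 80.5 percentile in the mutant. All 6 were therefore genes of middling level in the wild-type bud.

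Within the triad all 3 subgenomes contributed in every library, with shares between 23.6% and 42.2%. The share of a copy was its FPKM over the summed FPKM of the 3 copies, and the choice of genes used the change of each gene rather than this balance, though both come from the same libraries. AUX1-1D held the largest share, 38.6 ± 3.97% in Fielder and 37.1 ± 4.71% in the mutant (SD, n = 3 each), and was the highest copy in 5 of 6 libraries. The exception was mutant replicate 2, in which AUX1-1A was highest at 34.2% and both other copies stood at 32.9%. AUX1-1B held 30.9 ± 5.05% in Fielder and 28.4 ± 4.69% in the mutant (SD, n = 3 each), with 25.1% and 23.6% in replicate 3 of the respective groups. No library gave it the largest share.

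AUX1-1A was the copy whose shares did not overlap between the groups. It held 32.3, 26.1 and 33.2% of the triad in Fielder against 35.2, 34.2 and 34.3% in the mutant. All mutant shares were above all Fielder shares, by 3.999 percentage points between the means (p = 0.1 in a two-sided exact permutation test, adjusted p = 0.3 over the 3 copies). That is the smallest p-value that 3 libraries against 3 can give. The shares of AUX1-1B and AUX1-1D differed by -2.51 and -1.49 percentage points, with p = 0.5 and p = 0.8 in the same exact test. Fielder replicate 2, which had only 100 counts on the triad, gave AUX1-1A a share of its counts of 26.0%, with a 95% Wilson interval from 18.4% to 35.4% that reaches the mutant shares and covers counting error only. Without this library the difference for AUX1-1A was 1.79 percentage points. The difference for AUX1-1B was -5.43 points without Fielder replicate 3 and -0.10 without mutant replicate 3, and that for AUX1-1D changed sign, to 0.08, without Fielder replicate 3 and stood at 0.62 when mutant replicate 2 was left out. In pairs of copies, the same limit on the p-value applied. The log2 ratio of AUX1-1A to AUX1-1B was 0.31 higher in the mutant, that of AUX1-1A to AUX1-1D 0.24 higher and that of AUX1-1B to AUX1-1D 0.06 lower on the same scale, with adjusted p-values of 0.45, 0.45 and 0.8 over the 3 pairs in exact permutation tests.

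**Figure D3:**
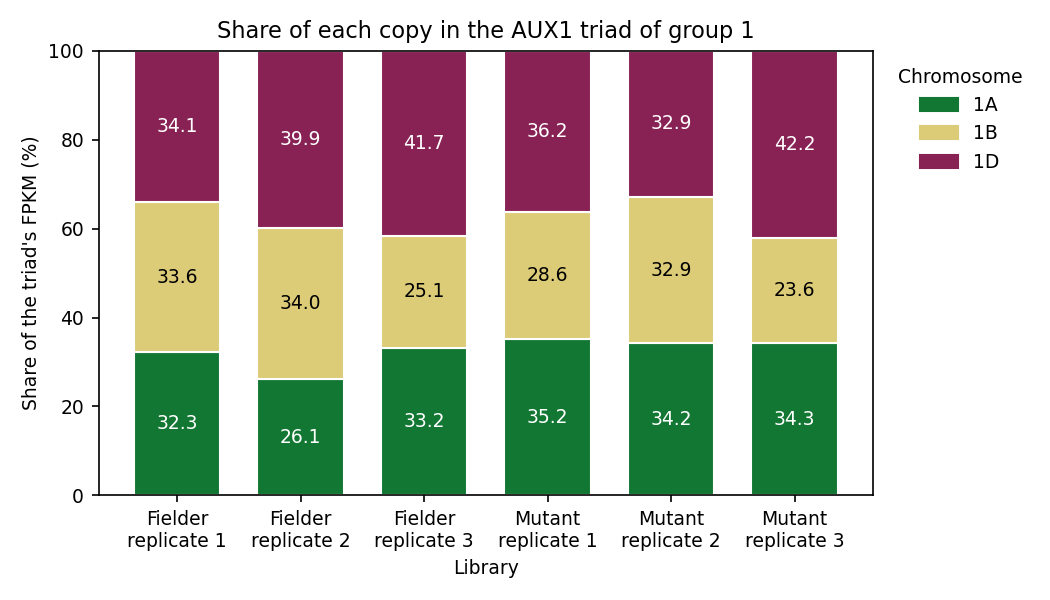
Share of each copy of the AUX1 triad of group 1 in the triad's summed FPKM, in percent, with a stacked bar for each library and the share printed in each segment. AUX1-1A takes 26.1 to 33.2% in Fielder and 34.2 to 35.2% in the mutant, and AUX1-1D takes the largest share in 5 of 6 libraries.

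The balance of influx to efflux members was taken as the ratio of their summed levels. Every gene in these sums was chosen for its change between the same libraries, and further AUX1 and PIN genes of the study were not analysed here, so the sums describe these 6 genes alone. The summed FPKM of the 4 AUX1 genes went from 12.6 ± 3.23 to 31.3 ± 6.94, and that of the 2 PIN genes from 7.08 ± 2.72 to 17.2 ± 4.68 (SD, n = 3 each). In order of replicate number, the ratio of these sums was 1.73, 2.21 and 1.62 for Fielder and 1.83, 2.04 and 1.66 for the mutant. In both groups replicate 2, with the lowest sums, had the highest ratio, and the groups overlapped. The mean log2 ratio was 0.88 ± 0.23 in Fielder and 0.88 ± 0.15 in the mutant (SD, n = 3 each). With AUX1-4B left out of the sum, the log2 ratio was 0.20 higher in the mutant, and with PIN-7A left out it was 0.30 lower, so the ratio depends on which members are summed.

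The members differed in the spread between replicates. The coefficient of variation of CPM for AUX1-4B was 5.97% in Fielder and 4.55% in the mutant, under the 9.39% and 6.48% that counting error alone gives at its mean counts. The other 5 members were above counting error in both groups. AUX1-1A varied by 49.9% in Fielder and 34.1% in the mutant, where counting gives 12.98% and 7.22%. PIN-7A varied by 47.3% and 30.3%, where counting gives 7.75% and 5.27%. PIN-4A, at 27.6% and 21.4%, had the smallest spread of the 5. The biological coefficient of variation of edgeR estimates the spread beyond counting and draws each gene towards the trend for genes of its abundance. By this estimate 5 of the 6 members lay above the trend, where 36.0% of all tested genes did. From the lowest to the highest the value was 0.17 for AUX1-4B, 0.21 for PIN-4A, 0.27 for AUX1-1B, 0.27 for PIN-7A, 0.28 for AUX1-1D and 0.30 for AUX1-1A. AUX1-4B was below its trend of 0.20, PIN-4A close to the same trend value, and AUX1-1A above its trend of 0.23. The 0.17 of AUX1-4B is not a measured spread beyond counting, as its coefficient of variation was under counting error.

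The members other than AUX1-4B varied together. Replicate 2 was the lowest library in both groups for 4 members, AUX1-1A, AUX1-1D, PIN-4A and PIN-7A, where this held for 11.8% of all tested genes. For AUX1-1B the lowest mutant library was replicate 3, at 7.97 CPM against 8.06 CPM in replicate 2. Mutant replicate 1 was the highest mutant library for all members but AUX1-4B, where this held for 31.9% of all tested genes. As a measure of this, the log2 CPM of each library was set against its group mean, which removes the difference between mutant and wild type, and these deviations were correlated over the 6 libraries. The values are given as a description without a test, because all genes share the 6 libraries and their depths. Among the 10 pairs without AUX1-4B, Pearson's r lay between 0.78 and 0.99, with a median of 0.95. The median r of the members against all tested genes was 0.0057.

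The closest pair was not within the triad but joined an influx and an efflux gene. AUX1-1D and PIN-7A had an r of 0.99, and 46 of the 52228 tested genes were closer to AUX1-1D than PIN-7A was. AUX1-1A and PIN-4A had an r of 0.98. Within the triad, r was 0.95 for AUX1-1A with AUX1-1D, 0.91 for AUX1-1A with AUX1-1B and 0.78 for AUX1-1B with AUX1-1D. AUX1-4B did not follow the others, with r between -0.40 and 0.12 in its 5 pairs, but its spread was under counting error, and the median r of these pairs changed sign in 3 of the 6 sets with 1 library left out.

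**Figure D4:**
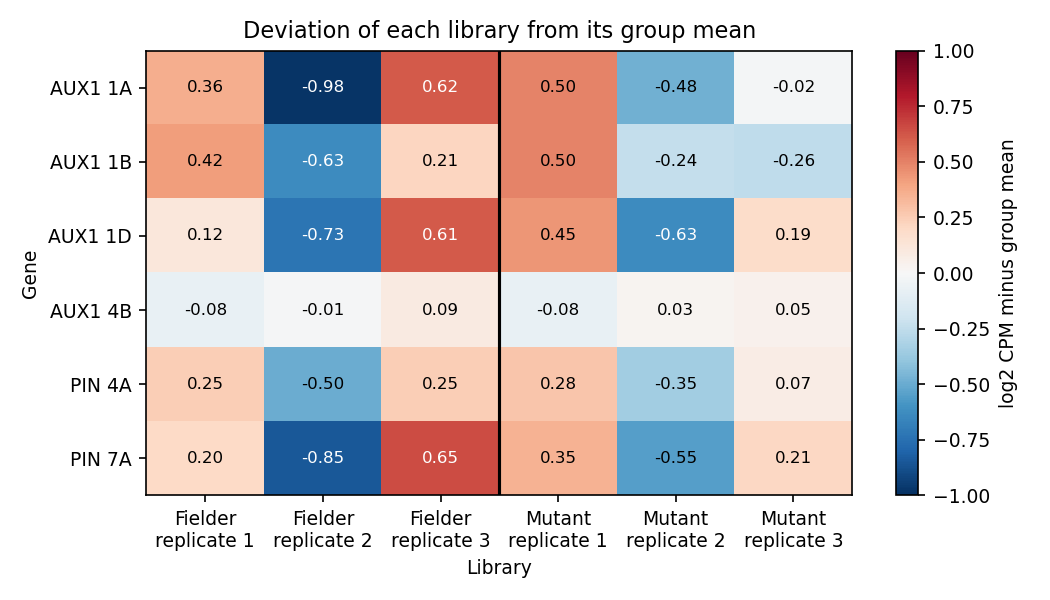
Deviation of log2 CPM from the group mean for each gene (rows) and library (columns, with Fielder left of the line), in log2 units, red above and blue below the mean. Replicate 2 is negative in both groups for all genes but AUX1-4B, from -0.98 to -0.24, and AUX1-4B stays between -0.08 and 0.09.

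The genes nearest in pattern to the members, taken from 32654 tested genes with a mean of at least 5 CPM, are not paired with names in the files. For the mean of the triad the nearest was TraesCS1B02G316200 (r of 0.9996 in the deviations over 6 libraries), with a log2 fold change of -0.70 and a standard error of 0.22. For PIN-4A it was TraesCS3B02G317300 (r of 0.9998), with a log2 fold change of -0.32 and a standard error of 0.20, and for PIN-7A TraesCS2B02G458600 (r of 0.9994), with 0.89 and 0.41. For AUX1-4B it was TraesCS2B02G326500 (r of 0.9983), with -0.47 and 0.22. Between 520 and 666 of the genes searched had an r above 0.9 for each of these patterns. With 6 libraries and the group means removed, few independent values stand behind an r, and each r named was the highest of 32654. How many unrelated genes would pass 0.9 in so few libraries was not tested, so no shared regulation is read from these values. None of the 4 met the rule for a call.

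The genes beside the members on the chromosome were not chosen by the study's auxin list. Of the 60 tested genes within 5 places of a member in identifier order, 13 (21.7%) were called, of which the mutant was higher for 7 and lower for 6, where 13.7% of all tested genes were called (7.98% higher and 5.75% lower). Their median log2 fold change was -0.15, against 0.0046 over all tested genes, so the neighbours as a group did not share the members' direction. Beside AUX1-1B 3 of 10 neighbours were called, with 2 higher and 1 lower. Beside PIN-7A 3 of 10 neighbours were called and all were higher, and beside PIN-4A 3 of 10 were called and all were lower, on either side of a gene that was itself higher. The neighbour with the lowest log2 fold change was TraesCS4A02G188300, the second tested gene after PIN-4A, at -1.55 ± 0.24 (SE, with an adjusted p of 0.00043 from the edgeR fit). The one with the highest was TraesCS1B02G097400 near AUX1-1B, which the study's annotation describes as a glutathione S-transferase, at 2.42 ± 0.44 (SE, with an adjusted p of 0.0013 from the edgeR fit).

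Other genes with auxin in their gene ontology terms moved in both directions. The list held 10 genes of chromosomes 1A, 1B and 1D and came from a part of the study's table of changed genes, so it is not independent of these libraries. Among the 9 that were tested, the mutant was higher for 3 and lower for 6 by the same rule, and the median log2 fold change was -1.16. Over all tested genes 7.98% were called higher and 5.75% lower. Nothing is read from the list's counts or median, because its genes were chosen as changed. The highest was TraesCS1D02G123500, described as an auxin-responsive protein of the IAA16 type, a kind of repressor of auxin response. Its Fielder libraries held 1, 0 and 6 counts against 22, 29 and 34 for the mutant libraries, a log2 fold change of 3.56 ± 0.88 (SE). TraesCS1A02G315300, annotated with auxin efflux like the PIN genes and named here after its values were seen, had Fielder counts of 68, 66 and 75 against mutant counts of 137, 169 and 122, a log2 fold change of 1.011 ± 0.253 (SE). The lowest was TraesCS1A02G264900, annotated to an SCF ubiquitin ligase complex in auxin signaling, which went from 239, 300 and 287 counts in Fielder to 159, 91 and 109 in the mutant, a log2 fold change of -1.23 ± 0.22 (SE).

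Markers of green and of dividing tissue differed between the groups as well. Of 7 genes of photosynthetic antenna proteins, which bind chlorophyll, 6 were tested and all 6 were called higher in the mutant. Their summed level was 0.15 to 1.93 CPM in Fielder, where 2 of the 7 had 0 counts in every library, and 51.8 to 56.5 CPM in the mutant. All 15 genes of DNA replication, which mark dividing cells, were called higher, with a summed level of 449 to 501 CPM in Fielder and 1645 to 1750 CPM in the mutant. Among all tested genes 7.98% were called higher. Both lists hold only genes that the study had selected as changed in these libraries, so nothing is read from these counts. The part of these tissues in the difference of the carrier genes between the groups was not tested.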

How the data were processed

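Total RNA of axillary buds was sequenced in 6 libraries, 3 of Fielder and 3 of the tatfl1-5 mutant, and groups and replicate numbers were taken from the sample titles. Filtered reads were mapped by the authors to the Ensembl Plants wheat assembly, whose version is not given in the sources used here, and raw counts per gene were deposited, without normalization. The authors also deposited FPKM values, and for each member counts and FPKM imply the same gene length in all libraries (1539 to 2399 bases). The aligner and the counter are not given in the sources used here. The study's methods and the labels name different library kits.

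The comparison of counts used R 4.3.3 and edgeR 4.0.16 (filterByExpr, TMM, quasi-likelihood test over all 6 libraries, no covariates), with Benjamini-Hochberg adjustment over 52228 genes. The standard error was the log2 fold change over the square root of F. Shares and ratios were compared with exact permutation tests. Log2 CPM used a prior count of 2. With TMM, 1 count was worth 0.0583 to 0.0725 CPM. Alternatives used DESeq2 1.42.0 and limma-trend (limma 3.58.1) on log2 FPKM with a pseudocount of 1 or 0.1. In simulated counts for the 52228 genes, with 200 changed by 2 on the log2 scale, edgeR recovered 185 (92.5%) with 7 false calls. The changed genes were drawn above a limit on counts, and the spread of every gene was set to the trend. These changes were larger than those of the members, most of which spread above the trend, so the recovered share does not apply to them. Members, lists and tests were chosen with earlier results of these data known. The genes named were the members, the extremes of the auxin list and of the neighbours, and the gene most like each pattern. Python 3.11.15, scipy 1.17.1, pandas 2.3.3 and matplotlib 3.10.9 were used for summaries and figures.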

Additional observations from a re-analysis of the deposited data

How the results depend on the processing

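All 6 members kept a log2 fold change above 0 under each of the 16 alternatives run, between 0.78 and 1.996. The number of members called was 6, where 7.98% of all tested genes were called higher. It was 5 with library size alone (AUX1-4B at 0.99), where the share was 7.2%. Limma-trend called 4 on either pseudocount, where its share was 5.22% with a pseudocount of 1 and 7.41% with 0.1. With 1 library left out 5 to 6 were called, where the share was 6.44 to 9.42%. The test against the 2-fold threshold called 0, where the share was 1.73%. With the replicate number as a block, which the deviations of same-numbered libraries did not bear out (r of -0.02, 0.05 and 0.01 across genes), 6 members were called, with log2 fold changes from 1.06 to 1.74. Among all tested genes 8.23% were called higher with this block. Pairing by number cannot change a difference between group means. The differences in triad share therefore stayed at 3.999 percentage points for AUX1-1A, -2.51 for AUX1-1B and -1.49 for AUX1-1D. For the same reason the difference in the log2 ratio of AUX1 to PIN stayed at -0.0028. These equal values say nothing about robustness. The p-value for AUX1-1A was 0.25 in an exact test that flips the signs of the paired differences, against 0.1 without pairing.

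With 1 library left out, the difference in share ran from 1.79 to 5.35 percentage points for AUX1-1A, from -5.43 to -0.10 for AUX1-1B and from -4.03 to 0.62 for AUX1-1D. The difference in the log2 ratio of AUX1 to PIN, -0.0028 in FPKM, was 0.015 in CPM, 0.20 without AUX1-4B and -0.30 without PIN-7A. It ran from -0.093 to 0.13 with 1 library left out. The median r of the deviations ran from 0.76 to 0.96 within the triad, lowest without Fielder replicate 2, from 0.72 to 0.95 over all pairs, and from -0.70 to 0.31 for AUX1-4B with the others. Of the 120 genes within 10 places of a member 24 were called, and with 1 library left out 9 to 14 of the 60 nearer ones. The causes of these shifts were not tested. With 26 to 133 counts for most members in Fielder, counting error for 1 library was up to 13.4% at a group's mean count. It was larger in the libraries with the lowest counts. Besides, 3 libraries against 3 allow no exact p under 0.1.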
